A study of Mus musculus with 13 samples.

Results

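Avil encodes advillin, an actin filament binding protein of the villin and gelsolin family, and it was described here with its relatives Vil1, Vill, Gsn, Scin, Capg, Svil and Flii. The members were the rows of the count table that carry these symbols, which gave 8 of 24495 genes. The family was chosen by the level of Avil in cells given wild-type Tet2 against cells given the empty vector at day 5, so the values of all members in that comparison are a description with no test. RNA was sequenced from mouse embryonic fibroblasts (MEFs) taken at embryonic day 12.5 from V6.5 (129XBI/6) embryos. All groups were Tet2-/- and carried rtTA, the activator through which doxycycline switches on OKSM, the set of Pou5f1, Klf4, Sox2 and Myc transgenes that drives reprogramming. The Tet2-WT group (n = 3 libraries) received wild-type Tet2 in the retroviral vector pMXs, the Tet2-E group (n = 4) a stalling mutant of Tet2, and the pMXs group (n = 3) the empty vector. These 3 groups were sampled at day 5 of reprogramming, on Mito-C-treated feeder MEFs at low oxygen. Their medium held LIF, doxycycline at 2 µg/mL, the MEK inhibitor PD0325901 at 1 µM and the GSK3 inhibitor CHIR99021 at 3 µM. The Untreated MEFs (n = 3) received no reprogramming medium, and it is not clear from the labels if the empty vector is in them. No sorting step is described, and feeder cells may be in the day 5 libraries. In such bulk libraries fewer cells of a type cannot be told apart from less RNA per cell.

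Proteins of this family are built from repeated gelsolin domains, which bind actin and in most members are controlled by calcium. Gelsolin and adseverin cut filaments and then stay on the fast-growing end as a cap, the Capg protein caps without cutting, and villin also bundles filaments through a headpiece domain at its end. Villin supports the microvilli of intestinal and kidney epithelium, while advillin is known mainly from sensory neurons and tuft cells. Supervillin ties actin and myosin to the membrane, and flightless joins gelsolin domains to leucine-rich repeats and also acts in transcriptional coactivation.

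Levels are in CPM, counts brought to a common depth with library sizes scaled by the trimmed mean of M-values, and differences are log2 fold changes with a standard error (SE) from edgeR. Total counts were 20261396 to 25720579 in Tet2-WT, 14052646 to 26265382 in Tet2-E, 14310277 to 25326826 in pMXs and 21985590 to 25991708 in Untreated libraries. Of the 8 members, 6 had enough counts to pass the filter on low counts, Avil and 5 relatives. Tet2 itself averaged 1220 ± 36.2 CPM in Tet2-WT, 1160 ± 388 in Tet2-E, 46.4 ± 10.8 in pMXs and 43.8 ± 5.4 in Untreated cells (SD), with 581 CPM in Tet2-E replicate 100. All 12 fibroblast markers had a mean of at least 1 CPM in every group. Their summed level ran from 9730 to 11600 CPM in Tet2-WT, 13300 to 14600 in Tet2-E, 15700 to 17800 in pMXs and 38800 to 41300 in Untreated libraries. A gene is said to have risen or fallen where its Benjamini-Hochberg adjusted p over the 14607 genes kept was under 0.05 in edgeR's quasi-likelihood test.

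Against Untreated MEFs the advillin gene was the member that differed most, in the direction opposite to Vill, Gsn, Capg and Flii. Avil had 262, 246 and 241 CPM in the Tet2-WT libraries. It had 80.8, 65.3, 75.1 and 93.0 CPM in the Tet2-E libraries, 60.7, 61.5 and 61.1 CPM in the pMXs libraries, and 2.96, 2.62 and 1.75 CPM in the Untreated libraries. No 2 of the 4 groups overlapped, and the order was Tet2-WT, Tet2-E, pMXs and Untreated. Libraries did not overlap for 34.6% of all genes between Tet2-WT and pMXs, 10.2% between Tet2-E and pMXs, 15.0% between Tet2-WT and Tet2-E, and 72.0%, 74.3% and 68.7% for pMXs, Tet2-WT and Tet2-E against Untreated. The narrowest step was that between Tet2-E and pMXs, where the lowest Tet2-E library had 65.3 CPM and the highest pMXs library 61.5 CPM, a gap below the SD of 11.6 CPM among Tet2-E libraries.

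Avil was 4.09-fold higher in Tet2-WT than in pMXs cells (log2 fold change 2.03 ± 0.12, SE), the comparison that put it forward. Against Tet2-E the Tet2-WT level differed by 1.67 ± 0.11 on the log2 scale, and Tet2-E differed from pMXs by 0.36 ± 0.11. The pMXs level, with the empty vector, stood 24.8-fold above that of Untreated MEFs (4.63 ± 0.16). These 3 comparisons share libraries with the one that chose Avil and carry no test.

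Tet2-E against Untreated is the comparison whose group means use none of those libraries. The spread behind its SE and p came from the fit of all 13 libraries, which includes them, so its p is not fully separate from the choice of Avil. Between Tet2-E and Untreated, Avil rose 31.9-fold (log2 fold change 5.00 ± 0.15, adjusted p = 7.5e-13 in edgeR), with all 4 Tet2-E libraries above all 3 Untreated ones. Of all genes tested, 72.8% were called in that comparison and 36.7% were called as higher, so a call there is common. Within replicate numbers 1 and 2 the difference was 4.71, and within 100 and 250 it was 5.58.

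**Figure D1:**
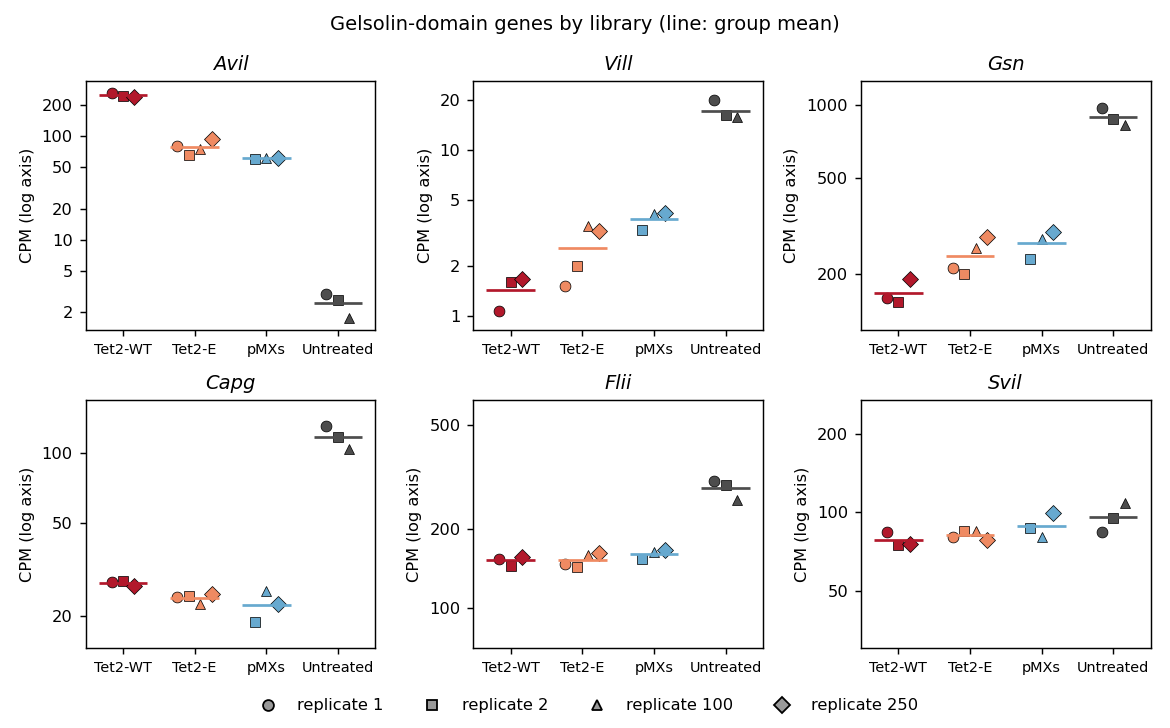
Level of the 6 members kept by the filter in each library, in CPM on a log axis that differs between panels. Groups run from Tet2-WT through Tet2-E and pMXs to Untreated, symbols mark the replicate number and lines the group means. Avil stands at 241 to 262 CPM in Tet2-WT and at 1.75 to 2.96 CPM in Untreated libraries, while Vill, Gsn, Capg and Flii are highest in the Untreated libraries.

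In the plot of levels by library, Avil runs down the groups in the order in which Vill and Gsn run up. The replicates of pMXs sit almost on one another for Avil, and those of Tet2-E spread more.

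Tet2 oxidises methylated cytosine, which in most mammalian cells lies in CG dinucleotides, so the 250 bases before the annotated start of the members were read for CG. Sequences are from RefSeq, on GRCm38.p6, 5′ to 3′ on the strand of the gene, with each CG in capitals, and the letters CG read the same on both strands. Windows are shown for Avil, the member by which the family was chosen, for Vill, a relative that was lower with Tet2-WT than with pMXs, and for Flii, a relative whose day 5 groups overlapped.
Avil, chr10:127000459-127000708, plus strand: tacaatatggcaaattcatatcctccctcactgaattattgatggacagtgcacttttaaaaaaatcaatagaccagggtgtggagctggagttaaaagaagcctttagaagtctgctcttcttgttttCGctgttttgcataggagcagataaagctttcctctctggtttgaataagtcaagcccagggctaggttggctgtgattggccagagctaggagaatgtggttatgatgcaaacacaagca
Vill, chr9:119052528-119052777, plus strand: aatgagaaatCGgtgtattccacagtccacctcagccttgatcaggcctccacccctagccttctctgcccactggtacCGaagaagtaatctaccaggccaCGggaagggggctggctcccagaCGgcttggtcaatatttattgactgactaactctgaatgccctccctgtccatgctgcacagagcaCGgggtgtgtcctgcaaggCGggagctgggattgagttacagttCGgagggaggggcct
Flii, chr11:60727264-60727513, minus strand: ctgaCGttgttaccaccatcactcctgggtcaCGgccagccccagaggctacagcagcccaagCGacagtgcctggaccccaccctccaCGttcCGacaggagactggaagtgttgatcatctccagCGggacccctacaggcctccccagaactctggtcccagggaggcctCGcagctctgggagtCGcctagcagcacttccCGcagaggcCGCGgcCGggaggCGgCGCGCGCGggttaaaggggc
The Avil window held 1 CG at 42.0% G and C, the Vill window 7 at 56.4% and the Flii window 17 at 66.8%. Over 32851 such windows of 27025 genes the median was 6, with quartiles of 2 and 16, and 92.1% held at least 1. Vil1 had 5, Capg 7 and Scin 9, and the 3 Gsn windows had 15, 2 and 12. RefSeq also lists Avil models that begin further upstream. The data hold no measure of methylation, so these counts describe the sequence only.

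Set per length, the family changed its leading member. CPM were divided by the length of merged exons in the GENCODE M21 annotation to compare genes with one another. In Tet2-WT cells Avil was the most abundant of the 6 kept members, at 73.6 ± 3.25 CPM per kb against 52.9 ± 6.30 for Gsn. In pMXs cells Avil stood at 18.0 ± 0.125 CPM per kb and Gsn at 85.0 ± 10.7, and in Untreated MEFs Avil stood at 0.719 ± 0.183 and Gsn at 282 ± 23.4. Each of the Tet2-WT libraries gave the same order, with Avil at 77.2, 72.5 and 71.0 CPM per kb and Gsn at 50.4, 48.3 and 60.1.

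Avil made up 42.0% ± 2.29 of the summed level per kb of all 8 members in Tet2-WT, 15.7% ± 1.29 in Tet2-E, 11.8% ± 1.03 in pMXs and 0.178% ± 0.0333 in Untreated cells (SD). Gsn made up 30.1% ± 2.76 in Tet2-WT, 51.2% ± 2.6 in Tet2-E, 55.4% ± 2.13 in pMXs and 70.7% ± 0.513 in Untreated cells. The sum itself was 175 ± 6.27 CPM per kb in Tet2-WT, 147 ± 17 in Tet2-E, 153 ± 13.7 in pMXs and 399 ± 32.9 in Untreated cells. The family sum was thus lower in every day 5 group than in Untreated MEFs, Tet2-WT cells with their high Avil level included. In pMXs cells Flii came after Gsn, at 32.0 CPM per kb, then Avil at 18.0, Capg at 8.84 and Svil at 8.32, while Vill, at 0.878, was the least abundant kept member.

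**Figure D2:**
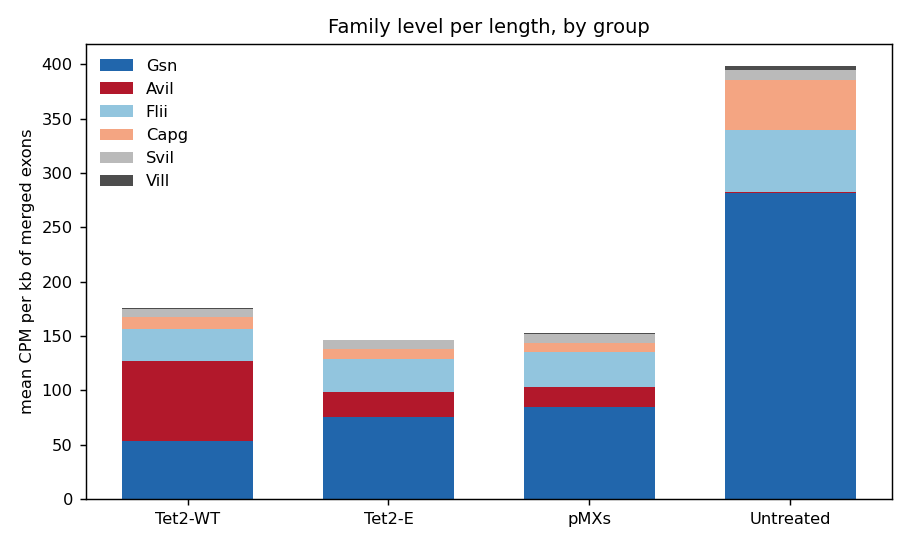
Mean CPM per kb of merged exons for the 6 members kept by the filter, stacked, in Tet2-WT, Tet2-E, pMXs and Untreated cells. The Avil block is the tallest in Tet2-WT, at 73.6 CPM per kb, and is hardly visible in Untreated cells, at 0.719, where Gsn reaches 282.

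In the stacked plot the Avil block is larger and the Gsn block smaller in Tet2-WT than in Untreated cells. Against Untreated cells, the Gsn level missing from Tet2-WT cells is larger than the Avil level they gained. Against pMXs cells it is smaller, with Gsn at 52.9 against 85.0 CPM per kb and Avil at 73.6 against 18.0.

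The closest relatives of Avil in the villin group were low. Vil1, which encodes villin itself, had 0, 1 and 1 counts in the Tet2-WT libraries, 1, 0, 1 and 2 in the Tet2-E libraries, 0 in each pMXs library, and 3, 0 and 1 in the Untreated libraries. With 10 counts in all 13 libraries it did not pass the filter. A count of 0 in a pMXs library allows a level of up to 0.118 to 0.210 CPM (3 counts, counting error only). Of 9 enterocyte markers none passed the filter, and their summed level was 0.0478 to 0.375 CPM in Tet2-WT libraries.

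Vill encodes villin-like protein, which resembles villin and also has a headpiece, and it ran against Avil. It had 1.08, 1.6 and 1.67 CPM in the Tet2-WT libraries and 1.52, 2.01, 3.47 and 3.28 CPM in the Tet2-E libraries. It had 3.30, 4.14 and 4.17 CPM in the pMXs libraries and 19.9, 16.1 and 15.7 CPM in the Untreated libraries. The Tet2-WT libraries lay below all pMXs libraries, the Tet2-E libraries overlapped both, and the Untreated libraries stood far above.

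Vill fell in pMXs against Untreated cells by 2.15 ± 0.22 on the log2 scale (adjusted p = 5.11e-07 in edgeR), and in Tet2-E against Untreated cells by 2.69 ± 0.21 (adjusted p = 1.34e-08). It was lower in Tet2-WT than in pMXs cells by a log2 fold change of -1.41 ± 0.27, given as a description, and by -1.27 within replicate numbers 1 and 2 and -1.31 within 100 and 250. The difference between Tet2-WT and Tet2-E, -0.86 ± 0.26, missed the threshold in edgeR (adjusted p = 0.0843). DESeq2 called it (adjusted p = 0.0248), and so did edgeR without Tet2-E replicate 1 (-1.04, adjusted p = 0.0173). Between Tet2-E and pMXs the difference was -0.55 ± 0.24 (adjusted p = 0.492).

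Gelsolin was the most abundant member per length in every group but Tet2-WT. Gsn had 159, 152 and 190 CPM in the Tet2-WT libraries and 212, 200, 255 and 285 CPM in the Tet2-E libraries. It had 231, 278 and 297 CPM in the pMXs libraries and 971, 877 and 826 CPM in the Untreated libraries. The highest Tet2-WT library lay below the lowest Tet2-E and pMXs libraries, and the Tet2-E and pMXs libraries overlapped.

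Gsn fell by 1.73 ± 0.13 on the log2 scale in pMXs against Untreated cells (adjusted p = 2.06e-08 in edgeR). It was the relative called between Tet2-WT and Tet2-E, with a log2 fold change of -0.51 ± 0.12 (adjusted p = 0.0261 in edgeR), against a background of 4.62% of all genes called in that comparison. The adjusted p moved to 0.0527 with only the 2 groups fitted, to 0.135 without Tet2-WT replicate 1, 0.153 without Tet2-WT replicate 2, 0.0759 without Tet2-E replicate 100 and 0.0785 without Tet2-E replicate 250. Within replicate numbers 1 and 2 the difference was -0.41, and within 100 and 250 it was -0.51. In Tet2-WT against pMXs cells Gsn was lower by a log2 fold change of -0.68 ± 0.13, and by -0.57 and -0.60 within the number sets 1 and 2 and 100 and 250. Tet2-E against pMXs gave -0.17 ± 0.12 (adjusted p = 0.718).

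Fibroblasts express gelsolin strongly, and the fibroblast markers moved with it. Of the 12 markers, 6 fell and 2, Twist2 and S100a4, rose in Tet2-WT against pMXs cells, and all 12 fell in pMXs against Untreated cells. The call of Twist2 was lost with the replicate number as a block (0.38, adjusted p = 0.0904), and those of Twist2, S100a4 and Lum without 1 or more single libraries. Their part in the differences of Gsn, and of the other members that were highest in Untreated MEFs, was not tested.

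Scin encodes adseverin (scinderin), a severing protein close to gelsolin that is known from secretory cells. It had 2, 4 and 2 counts in the Tet2-WT libraries, 0, 0, 1 and 2 in the Tet2-E libraries, 0, 1 and 1 in the pMXs libraries, and 3, 1 and 7 in the Untreated libraries. With 24 counts in all it did not pass the filter, and a fit without that filter over 20548 genes called it in 1 comparison, Tet2-E against Untreated (log2 fold change -2.15 ± 0.88, adjusted p = 0.0444 in edgeR). Untreated replicate 100 holds 7 of the 11 Untreated counts behind that value.

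Capg caps filament ends without cutting and is known from macrophages as well as fibroblasts. It had 28.1, 28.3 and 26.9 CPM in the Tet2-WT libraries and 24.1, 24.5, 22.5 and 24.9 CPM in the Tet2-E libraries. It had 18.9, 25.6 and 22.6 CPM in the pMXs libraries and 131, 117 and 104 CPM in the Untreated libraries. The Tet2-WT libraries were above all other day 5 libraries by a small margin, and all day 5 libraries were far below the Untreated ones.

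Capg fell by 2.38 ± 0.11 on the log2 scale in pMXs against Untreated cells (adjusted p = 4.48e-11 in edgeR). It was the relative that stood higher in Tet2-WT than in pMXs cells, by 0.31 ± 0.11, and that value was 0.58 within replicate numbers 1 and 2 and 0.15 within 100 and 250. Between Tet2-WT and Tet2-E it differed by 0.21 ± 0.10 (adjusted p = 0.309). The macrophage markers, 10 in number, summed to 213 to 310 CPM in Tet2-WT, 93.6 to 127 in Tet2-E, 81.2 to 94.7 in pMXs and 6.08 to 7.16 in Untreated libraries. Of the 6 tested, 4 rose in Tet2-WT against pMXs cells, Laptm5, Cd68, Itgam and Csf1r. In pMXs against Untreated cells 3 of the 6 rose, Cd68, Itgam and Laptm5, and 3 fell, Csf1r, Lyz2 and Cd53. Lyz2 averaged 2.06 CPM in Untreated and 0.044 in Tet2-WT cells, and Cd53 1.21 in Untreated and 0.0124 in Tet2-WT cells. Laptm5 made up most of the sum, at 251 ± 52.1 CPM in Tet2-WT and 80.0 ± 7.10 in pMXs cells. Cd68 averaged 16 ± 2.43 CPM in Tet2-WT and 4.84 ± 0.244 in pMXs cells, and Itgam 7.13 ± 0.513 in Tet2-WT and 0.791 ± 0.373 in pMXs cells, while Adgre1 had no count in either group and Ptprc averaged 0.0156 CPM in Tet2-WT and none in pMXs cells. The part of macrophages in the level of Capg was not tested.

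The large members Flii and Svil differed least among the day 5 groups. Flii had 154, 145 and 157 CPM in the Tet2-WT libraries and 147, 143, 160 and 162 CPM in the Tet2-E libraries. It had 154, 163 and 167 CPM in the pMXs libraries and 307, 295 and 258 CPM in the Untreated libraries. The day 5 groups overlapped one another and lay below all Untreated libraries.

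Flii fell by 0.83 ± 0.08 on the log2 scale in pMXs against Untreated cells (adjusted p = 1.57e-07 in edgeR), and differed by -0.09 ± 0.08 between Tet2-WT and pMXs cells. Between Tet2-WT and Tet2-E the value was -0.01 ± 0.07 (adjusted p = 0.983).

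Svil had 84.2, 74.9 and 75.6 CPM in the Tet2-WT libraries and 80.8, 85.0, 84.9 and 78.6 CPM in the Tet2-E libraries. It had 86.9, 80.6 and 99.6 CPM in the pMXs libraries and 84.3, 95.2 and 109 CPM in the Untreated libraries. Its groups overlapped, apart from the Tet2-WT libraries, all of which lay just below the lowest Untreated library. It was the one kept member not called between pMXs and Untreated cells (-0.11 ± 0.10, adjusted p = 0.308), a value that turned to 0.05 when libraries were scaled by their totals only. It passed the threshold in Tet2-WT against Untreated cells (-0.30 ± 0.10, adjusted p = 0.0113) and in Tet2-E against Untreated cells (-0.22 ± 0.09, adjusted p = 0.0344). Without Untreated replicate 100 the adjusted p was 0.0599 for Tet2-WT and 0.201 for Tet2-E, and with library totals only it was 0.237 for Tet2-WT and 0.565 for Tet2-E. The Tet2-E call was also lost without Tet2-E replicates 1, 100 or 250 or Untreated replicate 2 (adjusted p 0.0563 to 0.0842) and with only the 2 groups fitted (0.0541). Scaling by totals moved the median of all genes by 0.167 to 0.175 on the log2 scale in the comparisons with Untreated MEFs.

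Counted together, the relatives of Avil were mostly lower at day 5 than in Untreated MEFs, and few were called between the vectors. In pMXs against Untreated cells 4 of the 5 kept relatives fell and none rose, where 70.1% of all genes were called and 35.0% fell. In Tet2-WT against Untreated cells 5 of 5 fell, where 72.7% of all genes were called and 35.3% fell. The changes there were -3.56 ± 0.25 for Vill, -2.42 ± 0.14 for Gsn, -2.08 ± 0.10 for Capg and -0.92 ± 0.08 for Flii, beside 6.66 ± 0.16 for Avil. In Tet2-E against Untreated cells 5 of 5 fell as well, where 36.1% of all genes fell.

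Between Tet2-WT and Tet2-E, 1 of the 5 relatives was called, Gsn, as lower, where 2.19% of all genes were. Between Tet2-E and pMXs none of the 5 was called by edgeR's adjusted p or by DESeq2, and 1, Vill, had an unadjusted p under 0.05. Of all genes, 0.0479%, 7 in number, were called there by adjusted p, and 9.33%, 1363 in number, had an unadjusted p under 0.05. With the replicate number as a block, 93 genes were called there, again with none of the relatives. In Tet2-WT against pMXs cells, the comparison that chose the family, 12.5% of all genes were called and 6.52% called as lower. The 2 relatives Vill and Gsn fall among the genes called as lower there, which is given as a description and not read as a test.

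**Figure D3:**
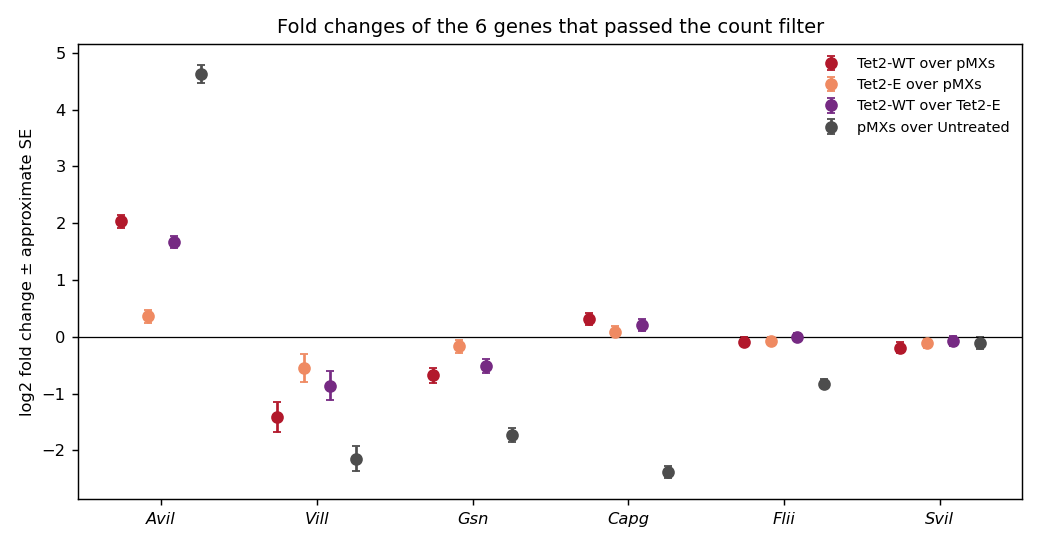
Log2 fold change of the 6 kept members, with bars of 1 SE above and below and the first-named group over the second. Comparisons are Tet2-WT over pMXs, Tet2-E over pMXs, Tet2-WT over Tet2-E and pMXs over Untreated. Avil lies above 0 in each of them, up to 4.63 in pMXs over Untreated, while Vill and Gsn lie below 0.

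The plot of fold changes sets the comparisons side by side. They share libraries, so a sign that recurs from one comparison to the next is no separate evidence.

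Genes beside the villin group members were looked at next, since Avil, Vil1 and Vill each lie beside a gene of the Ctdsp family, which encodes small phosphatases of the RNA polymerase II tail. Avil lies between Ctdsp2 and Tsfm on chromosome 10, Vil1 between Ctdsp1 and Usp37 on chromosome 1, and Vill between Ctdspl and Plcd1 on chromosome 9. Tsfm, which encodes a mitochondrial translation factor, shares 165 of the 3398 exon bases of Avil on the opposite strand, and whether counting used strand is not given in the sources used here. It averaged 18.9 CPM in Tet2-WT, 19.5 in pMXs and 14.9 in Untreated cells. Its log2 fold change was -0.04 ± 0.11 for Tet2-WT against pMXs (adjusted p = 0.874 in edgeR) and 0.02 without pMXs replicate 250. Against Untreated cells Tsfm rose, as Avil was higher, by 0.38 ± 0.12 in pMXs (adjusted p = 0.00837) and 0.47 ± 0.11 in Tet2-E (adjusted p = 0.00109). The pMXs call was lost within replicate numbers 1 and 2 (adjusted p = 0.0749) and within 100 and 250 (0.0668).

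Ctdsp2 averaged 203 ± 53.2 CPM in Tet2-WT, 302 ± 75.6 in pMXs and 417 ± 30.5 in Untreated cells. It differed by -0.57 ± 0.26 between Tet2-WT and pMXs (adjusted p = 0.184), and was called with the replicate number as a block (-0.48, adjusted p = 0.036). Against Untreated, pMXs gave -0.46 ± 0.26 (adjusted p = 0.124), and with the block -0.71 (adjusted p = 0.000455). Both values are below 0, while those of Avil in these comparisons are above it.

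Beside Vill, both neighbours fell in pMXs against Untreated cells, as Vill did. Plcd1, which encodes a phospholipase C, averaged 8.08 ± 0.596 CPM in Tet2-WT, 13.2 ± 1.64 in pMXs and 72.4 ± 10.0 in Untreated cells. It fell by 0.72 ± 0.13 in Tet2-WT against pMXs (adjusted p = 0.00222 in edgeR), and its log2 fold change in pMXs against Untreated was -2.45 ± 0.12 (adjusted p = 1.82e-10). Ctdspl, on the other side of Vill, fell by 1.47 ± 0.13 in pMXs against Untreated (adjusted p = 5.68e-08), and its value of -0.22 ± 0.13 between Tet2-WT and pMXs missed the threshold (adjusted p = 0.325). Beside the nearly silent Vil1, Ctdsp1 fell by 0.49 ± 0.12 (adjusted p = 0.00267) and Usp37 rose by 0.59 ± 0.08 (adjusted p = 6.97e-06) in pMXs against Untreated cells.

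**Figure D4:**
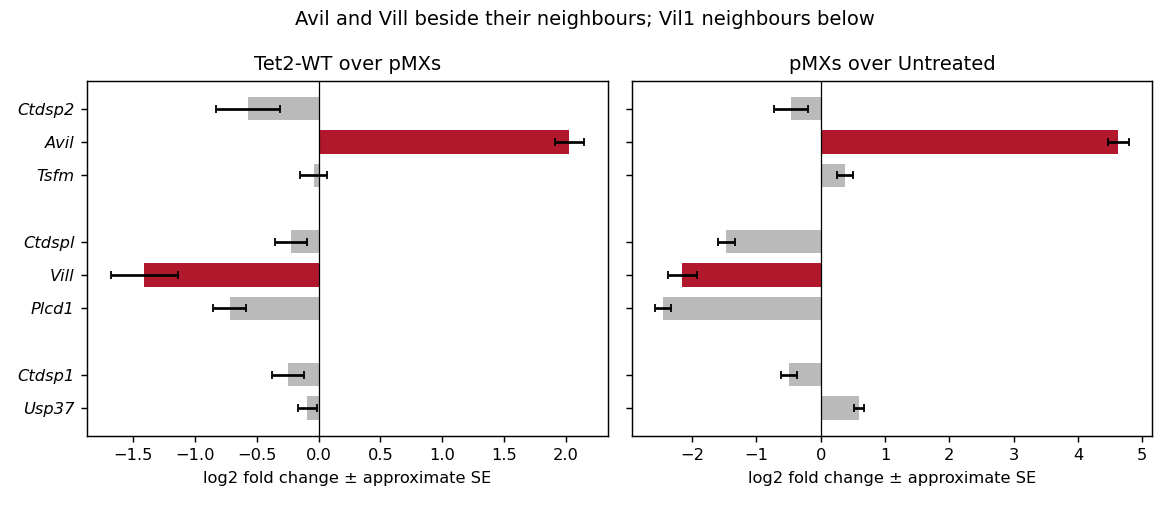
Log2 fold change, with bars of 1 SE, of the villin group members and the protein-coding genes beside them, for Tet2-WT over pMXs and for pMXs over Untreated. The bar of Avil reaches 2.03 and 4.63 while its neighbours Ctdsp2 and Tsfm stay between -0.57 and 0.38, and Plcd1 lies on the same side as Vill in both panels.

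In the neighbour plot Tsfm lies on the side of Avil in the comparison with Untreated cells and near 0 in the other. No test of the positions themselves was made.

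The genes most like Avil were sought by Pearson's correlation of log2 CPM (prior count 2) among 13050 genes with a mean of at least 1 CPM. The libraries compared share groups, number sets and the same scaling, so the correlations are descriptions. Over all 13 libraries the highest were Samd10 (0.998), Mavs (0.996), Gpn3 (0.995), Gsr (0.995) and Slc39a14 (0.994). Over the 10 day 5 libraries they were Mst1 (0.997), P2rx7 (0.987), Col17a1 (0.984), Samd10 (0.984) and Arhgap10 (0.984). Samd10 is in both lists, and the others differ.

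Mst1, which encodes a hepatocyte growth factor-like protein, averaged 26.4 CPM in Tet2-WT, 5.36 in pMXs and 0.402 in Untreated cells. P2rx7, an ATP-gated channel gene, averaged 79.5 CPM in Tet2-WT, 18.5 in pMXs and 3.11 in Untreated cells. Both had the order of Avil over these groups, whereas Col17a1, a hemidesmosome collagen gene, had 3.01 CPM in Tet2-WT, 0.333 in pMXs and 0.679 in Untreated cells. Arhgap10 averaged 18.9 CPM in Tet2-WT, 8.58 in pMXs and 16.3 in Untreated cells. These 2 genes thus had their lowest mean of the 3 in pMXs cells, unlike Avil.

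Other actin genes give the setting of the family at day 5. In pMXs against Untreated, 60 of the 80 genes tested in the lists that follow were called, 75.0%. That is near the share of all genes, of which 70.1% were called there and 35.0% fell. All 6 actin isoforms fell in pMXs against Untreated cells (median log2 fold change -1.43, against -0.001 over all genes), with Acta1 at -2.69 and Acta2 at -2.55. Among 20 severing and disassembly genes 11 fell and 5 rose, Cap2 (-2.21) and Mical1 (-2.12) falling most and Ssh2 (1.51) and Coro2a (1.38) rising most. Of 15 end-capping genes 10 fell, Lmod1 (-2.44) and Eps8 (-1.65) among them, and 1, Add3 (0.76), rose.

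Of 12 bundling genes 5 fell, led by Actn3 (-2.12) and Actn1 (-1.28), and 2 rose, Pls1 (3.23), an epithelial plastin, and Fscn1 (0.32). The Fscn1 call was lost without Untreated replicate 100 (adjusted p = 0.195), Untreated replicate 2 (0.0582) or any of the pMXs libraries (0.0711 to 0.106). Of 17 nucleation and monomer-binding genes 10 fell, among them Arpc1b (-1.03) and Tmsb4x (-0.81), and 3 rose, Cobl (3.33) and Wasl (0.57) the most. Of 10 microvillus genes 4 rose, among them Pls1 and Ezr (1.90), which links actin to the membrane, and 3 fell, among them Eps8 and Clic5 (-1.34). Epithelial markers summed to 469 to 623 CPM in pMXs and 21.0 to 36.4 in Untreated libraries, and their part in these values was not tested.

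In Tet2-WT against pMXs, 10 of the 80 genes tested in these lists were called, 12.5% of them, beside 12.5% of all genes. Actg2, a smooth muscle type actin, was the 1 isoform of 6 that rose, at 129 ± 6.56 CPM in Tet2-WT and 58.2 ± 11.3 in pMXs cells (log2 fold change 1.15, adjusted p = 0.000345 in edgeR). The capping genes Eps8l2 (0.64) and Tmod2 (0.57) rose, with the other 13 not called. Pls1 (0.99) rose and Marcksl1 (-0.44) fell among the bundling genes, and Cobl (0.47) was the 1 nucleator of 17 called. Limk2 (0.26) rose, and Mical1 (-0.72) and Ssh2 (-0.33) fell, among the severing genes. The calls of Tmod2 and Pls1 were lost without Tet2-WT replicates 1 or 2 or pMXs replicates 100 or 250 (adjusted p 0.0873 to 0.131), that of Cobl without Tet2-WT replicate 1 or pMXs replicates 100 or 250 (0.0614 to 0.0833), and that of Limk2 without Tet2-WT replicates 1 or 2 or pMXs replicate 250 (0.0726 to 0.0873). Those of Marcksl1 and Ssh2 were lost without Tet2-WT replicate 250 or pMXs replicate 2, Marcksl1 also without pMXs replicate 100, and Ssh2 also without Tet2-WT replicate 2 or pMXs replicate 250 (0.0578 to 0.156) and with the replicate number as a block (-0.31, 0.0779). Of the 10 microvillus genes 2 rose, Pls1 and Ush1c, the second of them low, at 0.962 ± 0.262 CPM in Tet2-WT and 0.147 ± 0.0387 in pMXs cells. None of the 3 other headpiece genes tested was called. In Tet2-E against pMXs no gene of any of these lists was called, and between Tet2-WT and Tet2-E the calls were Actg2, Eps8l2 and Ush1c, all higher in Tet2-WT. That of Actg2 was lost without Tet2-WT replicates 1 or 2 or Tet2-E replicates 100 or 250 (adjusted p 0.0696 to 0.12).

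Markers of the cells in which advillin is best known are given for comparison. The 11 sensory neuron markers summed to 95.6 to 117 CPM in Tet2-WT, 95.7 to 114 in Tet2-E, 88.7 to 108 in pMXs and 116 to 158 in Untreated libraries. Among them Pou4f1 averaged 2.86 CPM in Tet2-WT, 2.01 in pMXs and 0.0301 in Untreated cells, and Isl1 averaged 0.0758 CPM in Tet2-WT, 0.135 in pMXs and 0.422 in Untreated cells. In Tet2-E against Untreated, 4 of the 7 sensory neuron markers tested rose, Pou4f1, Scn9a, Calca and P2rx3, and Tubb3 fell. Of all genes, 72.8% were called in that comparison and 36.7% called as higher, so calls of such markers are common there. In pMXs against Untreated, where 70.1% of all genes were called, Pou4f1 and Calca rose and Tubb3 fell. Between Tet2-WT and pMXs no sensory neuron marker rose and 1 of the 7 tested, Calca, fell (-1.35, adjusted p = 0.00312), with an adjusted p of 0.0805 within replicate numbers 1 and 2. The 9 tuft cell markers summed to 57.1 to 59.0 CPM in Tet2-WT, 78.6 to 90.2 in Tet2-E, 87.4 to 99.7 in pMXs and 254 to 354 in Untreated libraries, mostly from Dclk1. Of the defining tuft cell genes, Pou2f3 averaged 0.354 CPM in Tet2-WT and 0.384 in pMXs cells, and Trpm5 averaged 0.0249 CPM in Tet2-WT and 0.151 in pMXs cells. The part of such cells in the level of Avil was not tested.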

How the data were processed

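RNA was measured by stranded, paired-end mRNA sequencing in 13 libraries, grouped by their titles, 3 with Tet2-WT, 4 with Tet2-E, 3 with pMXs and 3 Untreated. The deposited table holds raw read counts per gene symbol, which the authors made, per the submitters' processing notes, with STAR 2.6.1a on mm9 and featureCounts 1.6.2. SAMtools 1.7, DESeq2 1.26.0 under R 3.6.2, and bedtools 2.27.1 are listed there too, with no strand setting. The labels say that libraries were prepared in separate sets but not which were in which, and nothing marks replicates as separate cultures, so p-values measure the spread between these libraries only.

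The analysis used edgeR 4.0.16 under R 4.3.3. Its filterByExpr chose the genes kept (count minimum 10, total minimum 15), which left 14607 of 24495. Libraries were scaled by the trimmed mean of M-values (TMM), and a single robust quasi-likelihood fit with group means gave all comparisons, with Benjamini-Hochberg adjustment over all genes kept and a threshold of 0.05. The SE was approximated as the size of the log2 fold change over the square root of F. The biological coefficient of variation was 0.102. Pairs of replicates differed by more than counting error, with chi-square values of 6.3 to 40.4 for each degree of freedom. The procedure was tested on simulated data.

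The members and lists were chosen with earlier results of these data known. Avil was tested only in Tet2-E against Untreated, and members have no p in Tet2-WT against pMXs, where they entered the fit with all genes but are only described. Named genes outside the family were, per list and comparison, up to 2 called higher and 2 called lower with the largest changes and at least 1 CPM, the 5 genes most correlated with Avil in each set of libraries, and the genes beside Avil, Vil1 and Vill. Exon lengths and shared exon bases came from GENCODE M21, and neighbours and promoters from RefSeq (promoters on GRCm38.p6). These sources are of another build than the counts and were matched by symbol. Promoter windows on chromosome 18 were left out of the analysis, so none is given for Svil.

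Alternatives were the test of DESeq2 1.42.0, RLE size factors in edgeR, the filter left out or set to 1 CPM in 3 or more libraries, the replicate number as a block, only the 2 groups compared, and each library left out in turn. A term for the number set (1 and 2 against 100 and 250), contrasts within each set, and scaling by library totals only were added after seeing the data. The replicate numbers recur across groups in the titles, so residuals after group means were correlated. Day 5 pairs with the same number gave 0.121 to 0.339, against -0.42 to -0.05 across sets. Pairs of the same set with different numbers gave 0.078 to 0.363. The day 5 libraries thus went together by set, and pairing by number within a set was not shown. The analysis reported has no term for number or set. Same-number pairs with Untreated libraries gave -0.043 to 0.171.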

Additional observations from a re-analysis of the deposited data

Results flagged for a closer look

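One level stood apart from its group. Tet2 had 581 CPM in Tet2-E replicate 100, against 1360, 1400 and 1300 CPM in the other Tet2-E libraries, a gap that is large for the range of a group of 4. Chance flags about 1 in 20 groups. Tet2-E levels of each of the 8 members and of Tet2 were screened this way, so 1 flag among them is not unusual by chance. Avil was at 75.1 CPM in that library, inside the 65.3 to 93.0 CPM of its group, and Gsn, at 255 CPM, was also inside the range of the other Tet2-E libraries.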

How the results depend on the processing

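Of 432 alternative values for the 26 tested fold changes of members, 406 kept direction and side of the threshold, 3 passed it, 16 no longer passed it and 7 turned sign, the cause of which was not tested. Of 162 for the 10 fold changes given without a test, 147 moved by less than the SE of the reported value and 15 by more. A turn of sign was not looked for in all of these 10. The 7 turned values of the tested fold changes were near 0. Capg in Tet2-E against pMXs was -0.01 without pMXs replicate 2, -0.01 to 0.21 over the single libraries left out, and -0.03 within replicate numbers 100 and 250. Flii in Tet2-WT against Tet2-E was 0.02 without Tet2-WT replicate 2 and without Tet2-E replicates 100 or 250, -0.04 to 0.02 over all single libraries left out, and 0.04 within 1 and 2. Svil in pMXs against Untreated was 0.05 with library totals only. Among other genes, Tsfm in Tet2-WT against pMXs was 0.02 without pMXs replicate 250 and -0.10 to 0.02 over all single libraries left out. The relatives called between Tet2-WT and Tet2-E, 1 in the analysis reported, were 2 with DESeq2, 0 with only the 2 groups compared and 0 to 2 with single libraries left out. All genes called in Tet2-E against pMXs, 7 in the analysis reported, were 141 with DESeq2, 17 with no filter, 93 with the replicate block, 0 with only the 2 groups compared, 152 with a term for the set, 103 within 1 and 2, 83 within 100 and 250, and 1 to 50 with single libraries left out. All genes called between Tet2-WT and Tet2-E, 675 in the analysis reported, were 1052 with a term for the set, 1015 within 1 and 2 and 335 to 675 with single libraries left out. In Tet2-WT against pMXs, 1830 in the analysis reported, they were 1097 to 1821 with single libraries left out. The replicate block changed 0 of 26 tested calls of members and 4 of 174 calls of other named genes. Vil1 and Scin, with 10 and 24 counts in all, are limited by depth. Contrasts within a set take a group with 1 library to vary as the rest do.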
